A study of Homo sapiens with 8 samples.

Results

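The IFIT family was examined in RNA-seq counts of human leukemia cells in which PRMT9, an arginine methyltransferase, had been knocked down. Its members were chosen by gene symbol, as the rows for IFIT1, IFIT2, IFIT3 and IFIT5, so that 4 of the 57992 genes in the Molm13 table entered, and the same 4 identifiers were found among the 58174 genes of the THP1 table. Molm13 and THP1 are established cell lines from acute myeloid leukemia. In each line, cells that carried a control shRNA (shCtrl, given the genotype WT in the labels) were compared with cells that carried an shRNA against PRMT9 (shPRMT9, given the genotype PRMT9 knockdown). All 4 groups were listed as treated with doxycycline (Dox) induction, which switches on the inducible hairpin, and each held 2 libraries, or 8 libraries in all. The labels do not say whether the replicate numbers stand for separate cultures or for different hairpins, so p-values measure only the spread between these samples. In bulk RNA, more RNA per cell and more cells that express a gene cannot be told apart.

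IFIT proteins (interferon-induced proteins with tetratricopeptide repeats) are helical repeat proteins that are barely made in resting cells and strongly made once type I interferon or a viral sensor is active. They read the ends of foreign RNA. IFIT1 holds capped RNA whose first ribose lacks a methyl group and keeps it from being translated, IFIT3 binds IFIT1 and steadies it, IFIT2 binds RNA and partners with both, and IFIT5 binds RNA that still carries a terminal triphosphate. Transcription of the family is classically driven by interferon-activated transcription factors, among them STAT2 and IRF9, which act at the interferon-stimulated response element (ISRE) in the promoter.

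The libraries held between 18720950 and 27356870 counts on genes. PRMT9 had 289 to 332 counts with shCtrl and 41 to 56 with shPRMT9 in Molm13. In THP1 it had 317 to 352 and 60 to 68. Myeloid markers were present in both lines, with the summed level of 10 markers at 1292 to 1297 CPM (counts scaled to library size) in Molm13 shCtrl, 1886 to 1898 in Molm13 shPRMT9, 2647 to 2671 in THP1 shCtrl and 3954 to 4113 in THP1 shPRMT9. LYZ alone had a mean of 633, 997, 1887 and 3096 CPM in these groups in the same order. None of the 10 was at 0 in a group, but CD14 had 4 to 8 counts in Molm13. By the test used for the IFIT genes, 7 of the 9 tested in Molm13 and 7 of the 10 tested in THP1 rose with shPRMT9, CSF1R and ITGAM among them, beside 33.4% and 19.0% of all genes. In each line 2 of them fell, with log2 fold changes of -0.56 for MPO and -0.44 for FCGR1A in Molm13 and of -0.82 for MPO and -0.12 for CEBPA in THP1, beside 33.5% and 18.6% of all genes. Of T cell markers, CD3D and CD3E were at 0 in both shCtrl groups and in THP1 shPRMT9. In Molm13 shPRMT9 they had 1 to 3 and 0 to 1 counts. CD2 was at 0 in Molm13 and had 1 to 2 counts in THP1. The summed level of 5 B cell markers, most of it from PAX5, was 42.6 to 42.9 CPM in Molm13 shCtrl and 39.1 to 40.1 in Molm13 shPRMT9. In THP1 it was 4.09 to 4.52 in shCtrl and 12.4 to 13.5 in shPRMT9. PAX5 thus rose in THP1 together with the IFIT genes, by 2.03 on the log2 scale (adjusted p = 7.37e-13 from edgeR with Benjamini-Hochberg adjustment). The part of the myeloid and B cell markers in the IFIT values was not tested. The sample titles labelled THP1 hold the letters OCI in brackets, and in these libraries HOXB4 had 141 to 172 counts and MEIS1 4 to 9, against 0 to 2 and 1452 to 1811 in Molm13. HOXB3 and HOXB6 were also higher there, at 142 to 203 and 16 to 41 counts, against 3 to 5 and 0 in Molm13. HOXB2 and HOXB5 had at most 1 count in any library. HOXA9 was alike in the lines, with 1366 to 1539 counts in these libraries and 1215 to 1599 in Molm13. The letters leave the identity of this line in doubt, and these genes do not settle it. Identity was not tested here, and the line is called THP1 throughout because the labels do so. Values set across the lines also compare separate tables, so that line and handling cannot be told apart.

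The 4 genes lie side by side on the plus strand of chromosome 10 on GRCh38, in the order IFIT2 (ENSG00000119922; chr10:89283694-89309276), IFIT3 (ENSG00000119917; chr10:89327894-89340971), IFIT1 (ENSG00000185745; chr10:89392546-89406486) and IFIT5 (ENSG00000152778; chr10:89414586-89421001). Together they span 137.3 kb, with gaps of 18.6, 51.6 and 8.1 kb between neighbours. In GENCODE release 29 the genes share a plan in which a single exon holds nearly the whole protein. In the transcript with the longest coding sequence, the largest exon carried 99.7% of the coding bases of IFIT1, IFIT3 and IFIT5 and 97.4% of those of IFIT2. The coding sequences are related but well separated. Identity over aligned bases ran from 64.0% between IFIT2 and IFIT5 to 73.6% between IFIT2 and IFIT3.

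No 50-base window was shared between transcripts of the members (0 for each), but some sequence is shared with other genes. Of these windows, 1.02% of those of IFIT1, 7.91% of IFIT2, 3.64% of IFIT3 and 0% of IFIT5 also occur in a transcript of a gene outside the family, on either strand. For IFIT2, 7.5% of its windows fall in an overlapping noncoding gene on the same strand (ENSG00000232110), which had 0 counts in every library. That count does not show whether reads in the shared sequence were counted for IFIT2. LIPA, which encodes lysosomal acid lipase, runs the other way across IFIT2, IFIT3 and IFIT1, but its exons share 65 bases with those of IFIT2 and 0 with those of the other members. The strand setting of the counting is not given in the sources used here, so reads in those bases cannot be told apart.

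The promoter windows show where the family carries the ISRE. RefSeq windows on GRCh38.p14 run from 250 bases before to 50 after a gene's start, and 3 of the 4 members have one (IFIT1, IFIT3 with 2 starts, and IFIT5). The core searched was GAAANNGAAA on both strands, where N is any base, and its matches are in capitals in the sequences, which are given on the plus strand. Shown are chr10:89392373-89392672 for IFIT1, chr10:89327747-89328046 for the upstream start of IFIT3, and chr10:89414318-89414617 for IFIT5.
IFIT1: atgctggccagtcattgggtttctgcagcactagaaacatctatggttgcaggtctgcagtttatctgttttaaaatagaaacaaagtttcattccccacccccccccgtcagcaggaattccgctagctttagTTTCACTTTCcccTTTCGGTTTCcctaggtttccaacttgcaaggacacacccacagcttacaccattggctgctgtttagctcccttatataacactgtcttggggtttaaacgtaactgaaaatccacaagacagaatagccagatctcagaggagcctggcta
IFIT3: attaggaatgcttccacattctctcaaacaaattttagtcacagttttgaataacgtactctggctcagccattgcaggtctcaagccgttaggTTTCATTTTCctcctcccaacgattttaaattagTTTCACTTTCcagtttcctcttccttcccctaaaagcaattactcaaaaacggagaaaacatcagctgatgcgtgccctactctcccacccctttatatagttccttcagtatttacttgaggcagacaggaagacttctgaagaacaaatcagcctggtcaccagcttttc
IFIT5: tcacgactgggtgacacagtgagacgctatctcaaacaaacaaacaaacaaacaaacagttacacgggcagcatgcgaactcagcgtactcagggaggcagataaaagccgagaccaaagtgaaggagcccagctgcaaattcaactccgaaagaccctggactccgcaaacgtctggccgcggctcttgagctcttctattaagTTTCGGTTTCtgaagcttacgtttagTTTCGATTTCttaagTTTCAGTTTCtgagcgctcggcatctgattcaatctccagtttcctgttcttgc
All 7 matches lie on the minus strand as read here. The IFIT1 window held 2, which begin at -116 and -103 from the start, and the IFIT3 window held 2, at -156 and -122. The window of the second IFIT3 start (chr10:89332279-89332578) also held 2, at -94 and -51. IFIT5 stood apart from these by its count of 3 matches, at -45, -19 and -4. Positions are counted from the RefSeq starts, which differ from the gene starts given above. The RefSeq start lies downstream of that gene start for IFIT1 and IFIT3 and upstream of it for IFIT5. How close the matches lie to a start thus depends on the start used.

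Such promoters are rare. Of 35116 windows of the same length from 27305 genes, 1255 (3.57%) held at least 1 match, 91 (0.259%) at least 2 and 13 (0.037%) at least 3. IFI6, IFIH1 and HERC5, other interferon-stimulated genes, were also among the 13. The rest, apart from IFIT5, were ATF5, C2CD2, CARINH, DAGLB, LINC02286, LOC102723458, LOC107984480, LOC124902794 and ZNF583. Whether those respond to interferon was not tested. The GAS motif TTCNNNGAA, the element of the interferon gamma response, was found in 0 of the 4 IFIT windows and in 7.66% of all windows. These are matches of letters, and binding was not measured.

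The first question was whether the family rose when PRMT9 was knocked down. All 4 members rose in both lines. In Molm13, IFIT1 rose 16.5-fold, IFIT2 14.4-fold and IFIT3 10.5-fold, whereas IFIT5 rose 2.47-fold. In THP1 the rises were 9.70-fold for IFIT1, 4.97-fold for IFIT2, 7.87-fold for IFIT3 and 7.27-fold for IFIT5. The test was edgeR's quasi-likelihood test in each line alone, with p adjusted by Benjamini-Hochberg over the 16446 genes tested in Molm13 or the 16294 in THP1, and a limit of 0.05. By this test 33.4% of all genes were higher and 33.5% lower in Molm13, and 19.0% higher and 18.6% lower in THP1, and the 4 calls are to be read against these shares. Both shPRMT9 libraries lay above both shCtrl libraries for all 4 members in each line, as they did for 40.1% of all genes in Molm13 and 31.5% in THP1. With the study's limits added, namely a change of over 1.5-fold and an RPKM (counts scaled to library size and exon length) above 1 in at least 1 library, the 4 members were again called higher in both lines, beside 11.4% of all genes in Molm13 and 3.84% in THP1.

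IFIT1, which blocks translation of RNA with an undermethylated cap, had the largest change of the family in each line. In Molm13 it had 52 and 58 counts with shCtrl and 849 and 968 with shPRMT9. In THP1 it had 301 and 344 counts in shCtrl and 2971 and 2887 in shPRMT9. The groups did not overlap, and the lowest THP1 control was above the highest Molm13 control. The log2 fold change was 4.04 in Molm13 (SE 0.099, adjusted p = 4.22e-33 from edgeR with Benjamini-Hochberg adjustment) and 3.28 in THP1 (SE 0.058, adjusted p = 5.75e-26). Ranked by log2 fold change it was number 27 of 16446 genes in Molm13 and number 32 of 16294 in THP1.

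IFIT2, which binds RNA and is known for promoting cell death, had 92 and 72 counts with shCtrl and 1127 and 1238 with shPRMT9 in Molm13. In THP1, 486 and 568 counts in shCtrl stood against 2457 and 2447 in shPRMT9. The knockdown libraries were high in both lines, and the replicates within a knockdown group nearly coincided. The log2 fold change was 3.85 in Molm13 (SE 0.087, adjusted p = 2.35e-34 from edgeR with Benjamini-Hochberg adjustment), number 32 among all genes. In THP1 it was 2.31 (SE 0.056, adjusted p = 6.71e-23), number 97 among all genes and the smallest change of the family in that line.

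IFIT3, the partner that steadies IFIT1, had 95 and 80 counts in Molm13 shCtrl and 855 and 993 in shPRMT9. In THP1 it had 475 and 566 counts in shCtrl and 3903 and 3766 in shPRMT9. As for IFIT1, the 4 groups formed 4 separate steps, with THP1 above Molm13 in each condition. The log2 fold change was 3.40 in Molm13 (SE 0.090, adjusted p = 5.64e-32 from edgeR with Benjamini-Hochberg adjustment) and 2.98 in THP1 (SE 0.052, adjusted p = 5.21e-26), numbers 60 and 51 among all genes.

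IFIT5, the member that binds RNA with a terminal triphosphate, followed another course. In Molm13 it had 81 and 106 counts in shCtrl and 204 and 258 in shPRMT9. In THP1, 102 and 119 counts in shCtrl stood against 785 and 721 in shPRMT9. The RPKM of its controls overlapped between the 2 lines, whereas its knockdown libraries were far higher in THP1. The log2 fold change was 1.30 in Molm13 (SE 0.13, adjusted p = 5.24e-12 from edgeR with Benjamini-Hochberg adjustment), number 916 among all genes, and 2.86 in THP1 (SE 0.097, adjusted p = 1.89e-19), number 55.

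**Figure D1:**
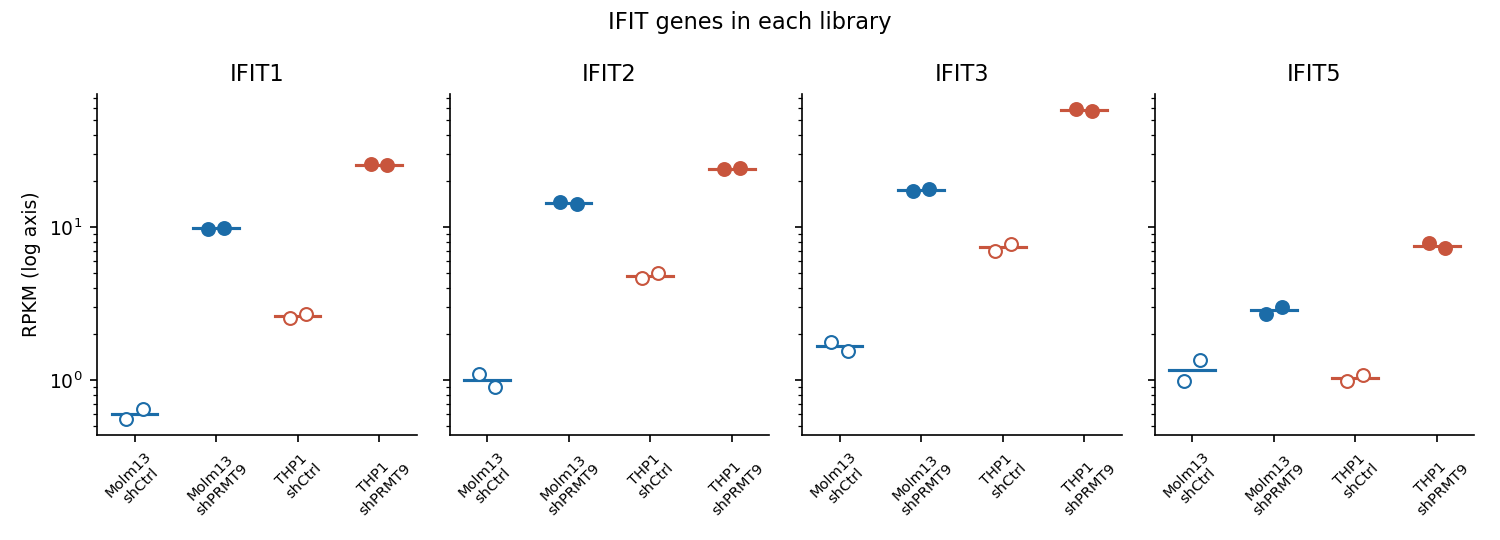
RPKM of each IFIT gene (log axis) in the 8 libraries by group; open points are shCtrl, filled points shPRMT9, blue Molm13 and red THP1, and each line is the mean of 2 libraries. IFIT1 rose from a mean of 0.597 to 9.79 in Molm13 and from 2.62 to 25.5 in THP1, whereas IFIT5 rose from 1.17 to 2.85 and from 1.03 to 7.54.

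It was next asked whether the effect of the knockdown differed between the lines, by the interaction term of a fit of all 8 libraries over 19288 genes. It did for all 4 members, and not in the same direction. As fold changes, IFIT1, IFIT2 and IFIT3 rose less in THP1 than in Molm13, and IFIT5 rose more. By this test the effect differed for 42.2% of all genes, with 22.8% higher in THP1 and 19.4% lower. The controls of IFIT1, IFIT2 and IFIT3 were lower in Molm13. Their mean RPKM was 0.597, 0.997 and 1.65 in Molm13 shCtrl and 2.62, 4.81 and 7.38 in THP1 shCtrl. The difference of the log2 fold changes, THP1 minus Molm13, was -1.52 for IFIT2 (SE 0.12, adjusted p = 1.25e-19 from edgeR with Benjamini-Hochberg adjustment) and 1.57 for IFIT5 (SE 0.18, adjusted p = 1.57e-12). It was -0.75 for IFIT1 (SE 0.15, adjusted p = 1.06e-05). For IFIT3 it was -0.41 (SE 0.13, adjusted p = 0.00465), and that call was lost without Molm13 shCtrl replicate 2, when the difference was -0.36 with an adjusted p of 0.0685 from edgeR.

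**Figure D2:**
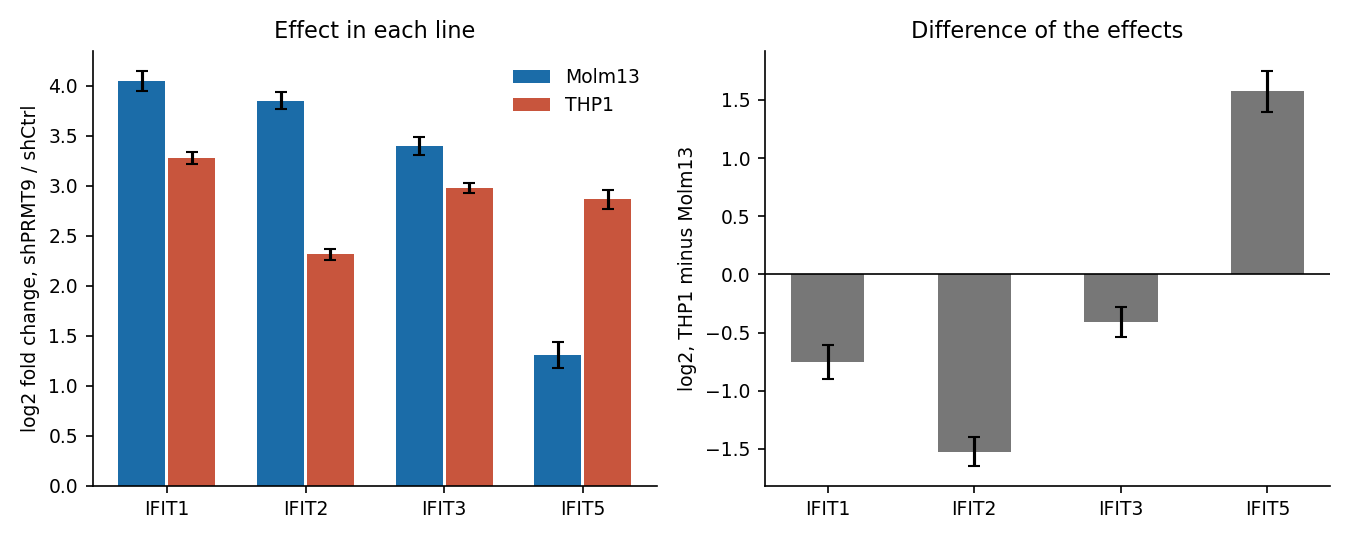
Left, log2 fold change of shPRMT9 over shCtrl for each IFIT gene in Molm13 (blue) and THP1 (red); right, the THP1 value minus the Molm13 value from the fit of all 8 libraries. Bars are estimates and error bars 1 SE, from 2 libraries per group. IFIT5 is the member whose right-hand bar is above 0, at 1.57, and the other members are at -0.75, -1.52 and -0.41.

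The 2 lines were also compared within each condition. Without knockdown, IFIT1, IFIT2 and IFIT3 were higher in THP1 than in Molm13, by 2.13 (SE 0.13), 2.27 (SE 0.11) and 2.16 (SE 0.10) on the log2 scale. These 3 were called higher by edgeR in the shCtrl libraries, as were 40.1% of all genes. IFIT5 was not called, at -0.17 (SE 0.15, adjusted p = 0.29 from edgeR with Benjamini-Hochberg adjustment), which does not show the lines to be equal. Under knockdown, all 4 members were higher in THP1, as were 42.1% of all genes, by 1.38 for IFIT1, 0.74 for IFIT2, 1.75 for IFIT3 and 1.40 for IFIT5 on the log2 scale. These comparisons share their libraries with the test of the difference and are no separate evidence for it.

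Per summed exon length, IFIT3 was the most abundant member in each of the 8 libraries and IFIT5 the least in 6 of them. In Molm13 shCtrl the members were close together, with RPKM of 1.76 and 1.55 for IFIT3, 1.099 and 0.896 for IFIT2, 0.988 and 1.35 for IFIT5, and 0.552 and 0.641 for IFIT1. There the ranges of IFIT2 and IFIT5 overlapped, and those of the other neighbours in the order did not. In THP1 shCtrl the RPKM were 7.003 and 7.75 for IFIT3, 4.61 and 5.01 for IFIT2, 2.54 and 2.70 for IFIT1, and 0.989 and 1.07 for IFIT5, with no overlap. By this length, IFIT1 and IFIT2 traded places between the lines under knockdown. In Molm13 shPRMT9 the order was IFIT3 (17.1 and 17.7), IFIT2 (14.5 and 14.2), IFIT1 (9.73 and 9.85) and IFIT5 (2.69 and 3.02), and in THP1 shPRMT9 it was IFIT3 (59.0 and 57.7), IFIT1 (25.7 and 25.3), IFIT2 (23.9 and 24.1) and IFIT5 (7.81 and 7.27). 

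The make-up of the family's RNA changed with the knockdown in Molm13 more than in THP1. The summed RPKM of the 4 members rose from 4.401 and 4.43 to 44.1 and 44.7 in Molm13, and from 15.1 and 16.5 to 114 and 116 in THP1. IFIT5 made up 26.4% ± 5.62 (SD, n = 2) of this sum in Molm13 shCtrl and 6.43% ± 0.46 in Molm13 shPRMT9. In THP1 its share was 6.51% ± 0.035 in shCtrl and 6.53% ± 0.247 in shPRMT9, so that the shares of IFIT5 in 3 of the groups lay between 6.10% and 6.75%. The share of IFIT2 rose from 22.6% ± 3.35 to 32.3% ± 0.891 in Molm13 and went from 30.4% ± 0.113 to 20.8% ± 0.389 in THP1 (SD, n = 2 each). The length used decides much of this order. With the length of the transcript with the longest coding sequence in place of all exons, 1880 against 4613 bases for IFIT1, IFIT1 made up 37.2% in Molm13 shPRMT9 and 38.1% in THP1 shPRMT9, above IFIT3 at 28.5% and 37.6%, and IFIT5 made up 20.4%, 4.41%, 4.74% and 4.59% in the 4 groups. By that length IFIT1 stood above IFIT2 in the shPRMT9 libraries of both lines, so that they did not trade places.

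**Figure D3:**
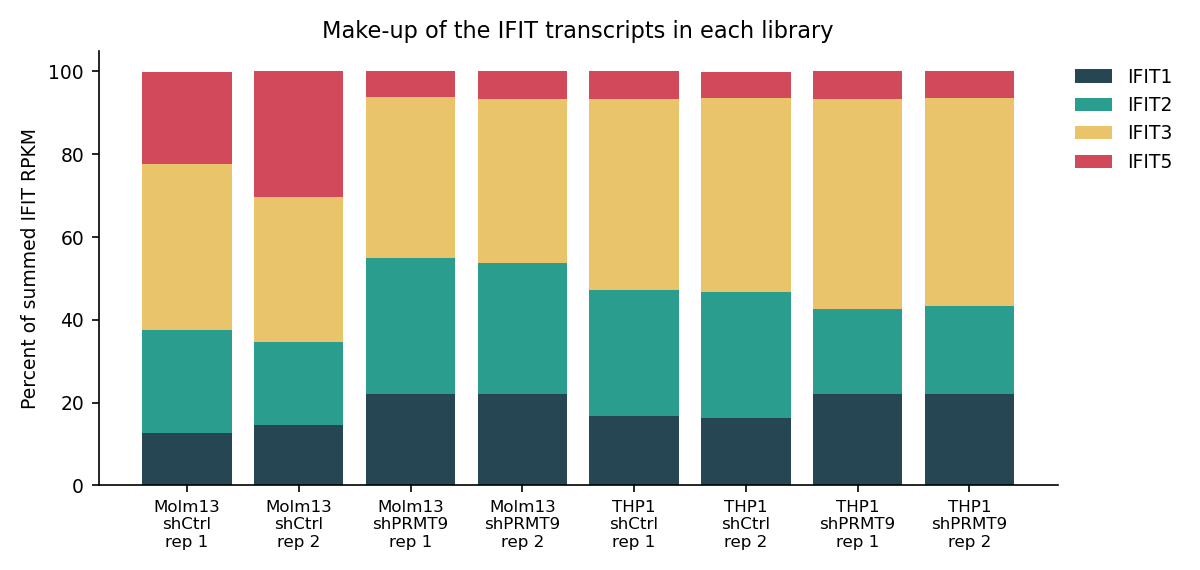
Percent of the summed RPKM of the 4 IFIT genes taken by each gene, one stacked bar for each of the 8 libraries. IFIT5 (red) takes 22.5% and 30.4% in the Molm13 shCtrl libraries and 6.10% to 6.75% in the other 6 libraries.

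Ratios taken within a library do not depend on scaling between libraries. The log2 ratio of IFIT1 to IFIT5 was -0.84 and -1.07 in the Molm13 shCtrl libraries, 1.86 and 1.71 in Molm13 shPRMT9, 1.36 and 1.33 in THP1 shCtrl, and 1.72 and 1.80 in THP1 shPRMT9. Per summed exon length, IFIT5 thus exceeded IFIT1 in the Molm13 controls and in no other library. By the length of the transcript with the longest coding sequence it did so in none, since the RPKM in the Molm13 controls were then 1.36 and 1.57 for IFIT1 and 0.988 and 1.35 for IFIT5. The choice of length moves the level of a ratio and not its change. The ratio rose by 2.74 in Molm13 and by 0.41 in THP1, and over both lines the exact two-sided permutation test within line gave p = 0.0556, the smallest p that this design allows. For IFIT3 the ratio rose by 2.09 in Molm13 and 0.11 in THP1 (exact permutation p = 0.0556 over both lines, again the smallest possible). For IFIT2 it rose by 2.55 in Molm13 and fell by 0.55 in THP1 (exact permutation p = 0.333 over both lines). Within 1 line, 2 against 2 libraries cannot give a p under 0.333, the value obtained for each gene in each line. Adding 1 RPKM to each value turned the IFIT2 change in THP1 to 0.036. The 3 ratios share the IFIT5 values. 

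Members of the family lay close to each other in their pattern over the 8 libraries, except IFIT5. Likeness was measured as the root mean square difference of log2 CPM, centred on each gene's mean, among 19288 genes. The nearest genes to IFIT1 were IFIT3 (0.28), BIRC3 (0.35), an inhibitor of apoptosis, and IFIT2 (0.39). Those to IFIT2 were BIRC3 (0.25), OAS1 (0.30), the antiviral oligoadenylate synthetase, and JUP (0.32), a junction protein. Those to IFIT3 were IFIT1 (0.28), BIRC3 (0.30) and MX2 (0.31), an antiviral GTPase. IFIT5 was at number 73 from IFIT1, 121 from IFIT2 and 88 from IFIT3, with differences of 1.12, 1.03 and 1.00. Counted from IFIT5, IFIT1 was at number 3624, IFIT2 at 1560 and IFIT3 at 1185. Their Pearson correlations with IFIT5 were 0.89, 0.82 and 0.88. The genes nearest to IFIT5 were MSC (0.24), a transcriptional repressor, SLAMF7 (0.26), a surface receptor of immune cells, and HELZ2 (0.29), an interferon-induced helicase. These 3 had log2 fold changes of 1.35, 1.56 and 1.65 in Molm13 and 2.38, 3.36 and 2.43 in THP1. BIRC3 had 4.34 and 2.58, OAS1 3.16 and 2.46, and JUP 3.72 and 1.67. MX2 had 2.85 and 2.61, and its difference between the lines was not called (-0.23, adjusted p = 0.19 from edgeR with Benjamini-Hochberg adjustment). All of these genes were picked for likeness over these same libraries, so no test is given.

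The relatives of the family were almost silent. IFIT1B, which lies between IFIT3 and IFIT1 and whose promoter window held 0 matches of the ISRE core, had at most 4 counts in any library. The pseudogene IFIT6P had 0 counts in every library, and IFIT1P1 on chromosome 13 had at most 20.

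The rise was also set against the chromosomal neighbourhood. Within 500 kb of the outer ends of the family lie 33 other genes of the table, of which 23 had 10 counts or fewer in every library. Of the 8 tested in Molm13, 4 rose and 3 fell, where 33.4% of all genes rose and 33.5% fell, with a median log2 fold change of -0.020 beside 0.0005 over all genes. Of the 7 tested in THP1, 3 rose and 2 fell, where 19.0% of all genes rose and 18.6% fell, with a median of 0.64 beside -0.0006. LIPA, which spans most of the family, had 2062 and 1832 counts in Molm13 shCtrl and 3460 and 3871 in shPRMT9, and it rose by 0.91 (SE 0.036) on the log2 scale. In THP1 it went from 1508 and 1467 counts to 2185 and 2160, a rise of 0.64 (SE 0.050). No tested neighbour changed as much as IFIT1, IFIT2 or IFIT3 in Molm13 or as any member in THP1. The largest rise in Molm13 was that of ACTA2, smooth muscle actin (1.18, SE 0.063), below but close to IFIT5 (1.30, SE 0.13). In THP1 it was that of ANKRD22 (1.91, SE 0.39), which had 8 to 10 counts in shCtrl and 27 to 37 in shPRMT9. FAS, the death receptor, rose by 0.15 (SE 0.059) in Molm13, where it had 684 to 812 counts and lost its call without shCtrl replicate 1 or either shPRMT9 library (2 neighbours then rose), and by 1.60 (SE 0.38) in THP1, where it had 8 to 35. On the far side, KIF20B, a mitotic kinesin, fell by 0.85 in Molm13 and fell by 0.27 in THP1, and PANK1, which makes coenzyme A, fell by 0.56 and fell by 0.50 (log2).

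**Figure D4:**
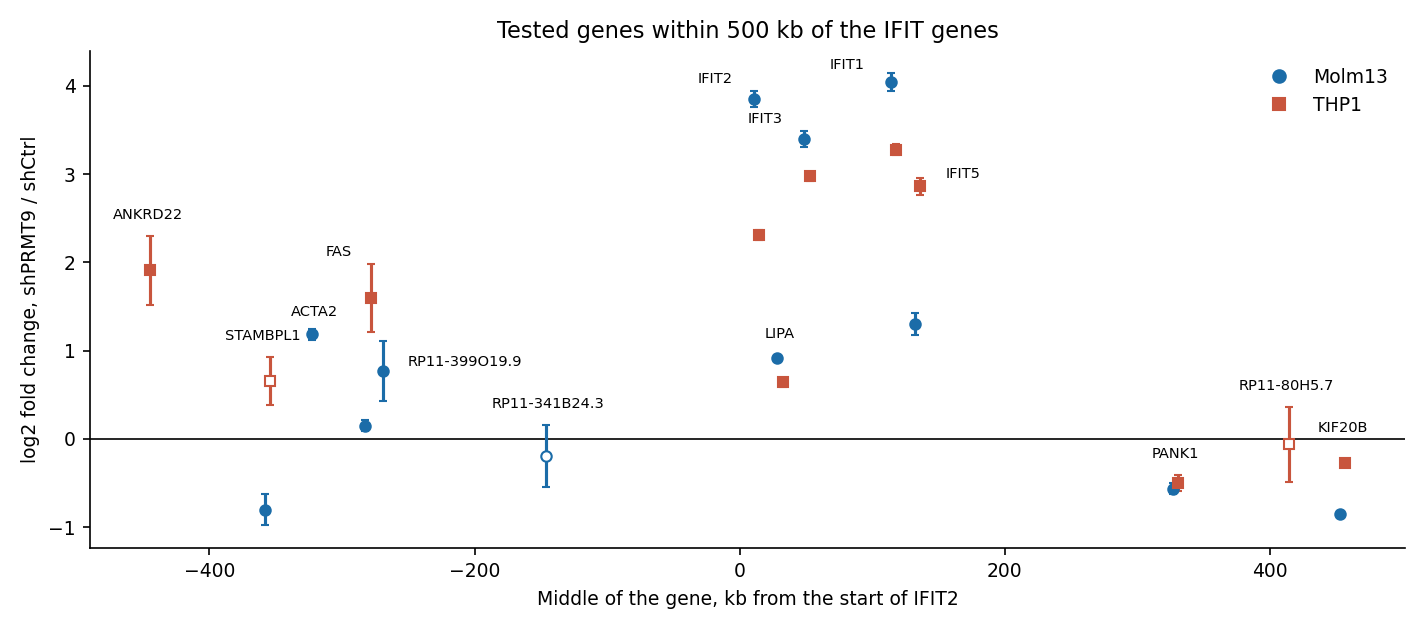
Log2 fold change of shPRMT9 over shCtrl (error bars 1 SE) for the tested genes within 500 kb of the family, against the middle of each gene in kb from the start of IFIT2; circles are Molm13, squares THP1, and open symbols did not pass the test. The IFIT genes stand between 1.30 and 4.04, and LIPA, which overlaps them, is at 0.91 and 0.64.

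Genes of the pathway that classically drives the family were then counted, from a list chosen with earlier results of these data known. What drove the family here was not tested. Of 12 genes of type I interferon signalling, all of which were tested, 10 rose and 0 fell in Molm13, where 33.4% of all genes rose and 33.5% fell, with a median log2 fold change of 0.66 beside 0.0005 over all genes. In THP1, where 19.0% of all genes rose and 18.6% fell, 10 rose and 0 fell as well, with a median of 0.43 beside -0.0006, and 8 rose in both lines. When a change of over 1.5-fold was required as well, 7 were higher in Molm13, as were 16.3% of all genes, and 5 in THP1, as were 5.78%. With DESeq2 in place of edgeR, 8 of the 12 rose in Molm13 and 9 in THP1, and 0 fell in either. Among all genes DESeq2 called 3785 of 30836 higher in Molm13 and 1974 of 32584 in THP1. Without Molm13 shCtrl replicate 1, IRF1 was called lower in Molm13 (-0.15), so that 1 of the 12 fell. Of the receptor and kinase genes, IFNAR1 rose by 0.62 in Molm13 and 0.28 in THP1, IFNAR2 was at 0.032 (adjusted p = 0.61 from edgeR, not past the limit) and 0.28, JAK1 rose by 0.42 and 0.15, and TYK2 by 0.18 and 0.39 (log2).

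STAT2 and IRF9, transcription factors that act together downstream of the receptor, rose in both lines. STAT2 went from 1151 and 1083 counts to 3341 and 3681 in Molm13 and from 1975 and 2111 to 4517 and 4654 in THP1, with log2 fold changes of 1.65 (SE 0.039) and 1.26 (SE 0.040). IRF9 went from 37 and 35 to 124 and 147 and from 159 and 177 to 235 and 266, with log2 fold changes of 1.91 (SE 0.18) and 0.67 (SE 0.12). Both thus rose more in Molm13, with differences (THP1 minus Molm13) of -0.38 and -1.22 on the log2 scale and adjusted p of 1.5e-08 and 1.68e-06 from edgeR with Benjamini-Hochberg adjustment.

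Among the remaining signalling genes, IRF7, which amplifies interferon production, rose by 1.95 in Molm13 and 1.61 in THP1. IRF3 rose by 0.22 in Molm13 and was at 0.023 in THP1 (adjusted p = 0.76 from edgeR, not past the limit). IRF1 was at -0.074 in Molm13 (adjusted p = 0.25 from edgeR, not past the limit) and rose by 0.45 in THP1. USP18, which removes ISG15 and dampens receptor signalling, had 70 and 57 counts in Molm13 shCtrl, 112 and 105 in Molm13 shPRMT9, 156 and 179 in THP1 shCtrl, and 1271 and 1258 in THP1 shPRMT9. The groups did not overlap in either line, and the THP1 knockdown libraries stood far above the rest. Its log2 fold changes were 0.77 (SE 0.17) and 3.01 (SE 0.078), and the difference of 2.25 had an adjusted p of 1.4e-17 from edgeR. SOCS3, a feedback inhibitor, rose by 0.88 and 0.66, and SOCS1 by 0.71 in Molm13, whereas in THP1 it was at 0.41 and did not pass. In all, the effect differed between the lines for 10 of the 12 genes, 4 of them larger in THP1 and 6 in Molm13, beside 42.2% of all genes, with 22.8% larger and 19.4% smaller in THP1.

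The ligands themselves were hardly counted. Of 21 type I and type III interferon genes, 0 passed the filter on low counts in either line, 16 were at 0 in all 8 libraries, and the highest count was 10. IFNB1, interferon beta, had 0 and 1 counts in Molm13 shCtrl, 3 and 2 in Molm13 shPRMT9, 1 and 1 in THP1 shCtrl, and 10 and 8 in THP1 shPRMT9. Its THP1 knockdown libraries stood above the rest, at counts near the limit of detection. Fitted without the filter, edgeR's quasi-likelihood test gave IFNB1 an adjusted p of 0.0101 in THP1 and 0.41 in Molm13, and DESeq2 gave unadjusted p of 0.0305 and 0.35 and no adjusted p. IFNL1, interferon lambda, had 0, 0, 1 and 6 counts in the THP1 libraries in the same order and 0 in Molm13.

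Enzymes that make or alter the RNA ends that IFIT proteins read were counted in the same way. Of 12 genes of this list, with proteins known to bind IFIT proteins, 3 rose and 5 fell in Molm13 and 2 rose and 4 fell in THP1, with median log2 fold changes of -0.086 and 0.026. Among all genes 33.4% rose and 33.5% fell in Molm13, and 19.0% rose and 18.6% fell in THP1. Without Molm13 shCtrl replicate 1, 3 fell in Molm13. A single gene was called in the same direction in both lines and 3 in opposite directions. The first was FAM103A1 (RAMAC), the activator of the cap guanine methyltransferase, which fell by 0.66 in Molm13 and fell by 0.48 in THP1. CMTR1, which adds the ribose methyl group that lets a cap escape IFIT1, had 770 and 740 counts in Molm13 shCtrl, 732 and 896 in Molm13 shPRMT9, 1595 and 1636 in THP1 shCtrl, and 2310 and 2353 in THP1 shPRMT9. It rose by 0.62 (SE 0.046) in THP1, whereas in Molm13 it was at 0.11 (SE 0.058, adjusted p = 0.097 from edgeR with Benjamini-Hochberg adjustment). Its partner CMTR2, which methylates the next ribose, fell by 0.36 in Molm13 and was at 0.053 in THP1, not past the limit. RNGTT, the capping enzyme, was at 0.034 and 0.029 and PCIF1, which methylates the cap-adjacent adenosine, at -0.033 and 0.030, and neither passed. DUSP11, which removes triphosphates from RNA ends, rose by 0.19 in Molm13 and was at 0.20 in THP1 (adjusted p = 0.0543 from edgeR, not past the limit). MAVS, the adaptor of RNA sensors, rose by 0.28 in Molm13 and fell by 0.18 in THP1, and its kinase TBK1 fell by 0.25 and rose by 0.31. EIF3E, the remaining gene called in opposite directions, rose by 0.16 in Molm13 and fell by 0.12 in THP1. EIF3C and RNMT fell by 0.31 and 0.17 in Molm13 and did not pass in THP1. DXO fell by 0.34 in THP1 and did not pass in Molm13.

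**Figure D5:**
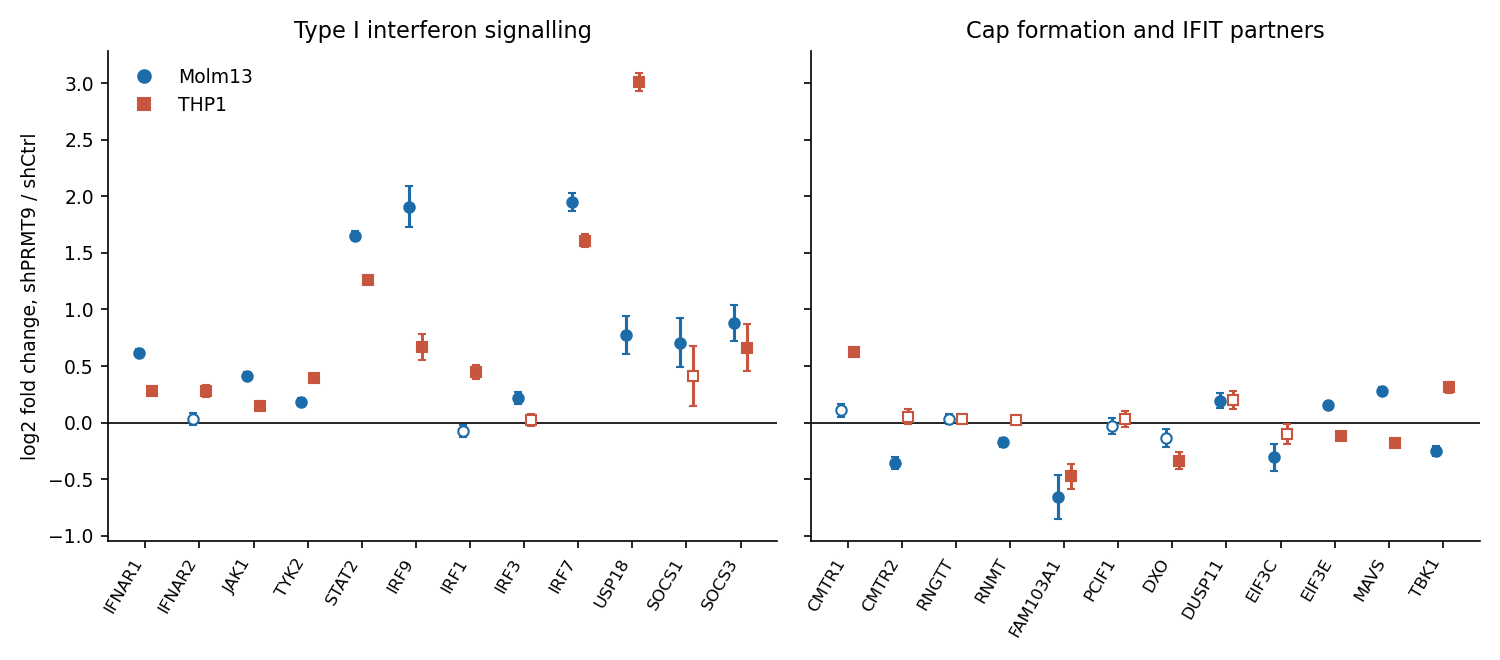
Log2 fold change of shPRMT9 over shCtrl (error bars 1 SE) for the 12 type I interferon signalling genes (left) and the 12 cap formation and IFIT partner genes (right); circles are Molm13, squares THP1, and open symbols did not pass the test. On the left most points lie above 0, up to 3.01 for USP18 in THP1, and on the right they lie between -0.66 and 0.62.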

How the data were processed

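PolyA RNA-seq libraries of Molm13 and THP1 cells were prepared from Trizol RNA. Per the labels, the authors used TopHat2 2.0.8, HTSeq 0.11.2 and hg38, and they deposited counts (whole reads per gene, not normalized) in a table for each line. Their edgeR version is given as 3.30.3. The annotation release and strand setting are not given in the sources used here. The Molm13 table holds coordinates and exon lengths, and 96.3% of its genes found in GENCODE release 29 have the same start and end there. THP1 genes were matched by identifier.

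All steps from the counts onward were run in R 4.3.3 with edgeR 4.0.16 (TMM, filterByExpr, quasi-likelihood test, Benjamini-Hochberg adjustment) and checked on simulated counts. DESeq2 1.42.0 served as an alternative, with other scalings, no filter, 1 fit for both lines, a replicate block and each library left out. SE is the absolute log2 fold change over the square root of F. RPKM used TMM factors over all 8 libraries and the summed exon length. Permutation tests, motif searches and alignments used Python 3.11.15 and Biopython 1.88. Replicate libraries differed by more than sampling noise (chi-square per gene 1.35 to 2.17), and intervals cover only this spread.

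The members and gene lists were chosen with earlier results of these data known. Named are the 4 members, PRMT9, the genes of the lists and markers, tested genes of the locus, and for each member the 3 genes with the smallest root mean square difference. Genes other than IFIT5 with at least 3 ISRE matches were named after the promoter search. In the signalling list, 1 gene is not reported here and was left out of its counts.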

Additional observations from a re-analysis of the deposited data

Results flagged for a closer look

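For all 4 IFIT genes the response to shPRMT9 was unequal in the 2 lines by the test of the difference itself (edgeR's quasi-likelihood interaction term with Benjamini-Hochberg adjustment, THP1 minus Molm13, log2 scale). The value was 1.57 for IFIT5 and -1.52 for IFIT2, and it was -0.75 for IFIT1 and -0.41 for IFIT3. IFIT5 was the member whose log2 fold change was larger in THP1. IFIT3 did not keep its call when Molm13 shCtrl replicate 2 was left out.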

How the results depend on the processing

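Of 236 values of the members under the alternatives, 235 kept their direction or stayed uncalled and kept their side of the limit. The exception was the difference between the lines for IFIT3, which ranged from -0.54 to -0.36 with single libraries left out and was not called without Molm13 shCtrl replicate 2. The difference for IFIT5 in the shCtrl libraries, not called, ranged from -0.38 to 0.077. Over all genes, DESeq2 called 3805 in THP1 where edgeR called 6127, and the study's limits left 3738 of 11008 in Molm13 and 1015 in THP1. A pseudocount of 1 RPKM moved the change of the log2 ratio of IFIT1 to IFIT5 to 1.92 in Molm13 and 0.80 in THP1, that of IFIT3 in THP1 to 0.76, and turned that of IFIT2 in THP1 from -0.55 to 0.036. With fold change above 1.5 in addition, the signalling list kept 7 higher genes in Molm13 and 5 in THP1, the partner list 0 higher and 1 lower in Molm13 and 1 higher and 0 lower in THP1, and the locus 0 lower in THP1. With the window of 250 kb, 1 locus gene was higher and 1 lower in Molm13, and 1 higher and 1 lower in THP1. With single libraries left out in Molm13, the locus held 2 to 3 higher genes, the signalling list 0 to 1 lower genes and the partner list 3 to 5 lower genes. The length alternative for the shares was chosen after seeing the data. Elsewhere the cause of a change was not tested.

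No sign of pairing by replicate number was seen over all tested genes: deviations of same-numbered libraries correlated at -0.087 in Molm13 and -0.015 in THP1. Such low correlations do not exclude pairing. With the replicate block, 10855 genes were called in Molm13 and 6054 in THP1, the IFIT log2 fold changes were 4.04, 3.85, 3.40 and 1.30 in Molm13 for IFIT1, IFIT2, IFIT3 and IFIT5, and it changed no call of a member. With 2 libraries per group no library can be singled out as aberrant, and the ratio tests cannot pass 0.05. The SE of each member was larger in Molm13, where the control counts were lowest, than in THP1. It also depended on the method. With DESeq2 the SE in Molm13 was 0.18 for IFIT1, 0.15 for IFIT2, 0.16 for IFIT3 and 0.235 for IFIT5, larger than from edgeR.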
